A study of Mus musculus with 6 samples.

Results

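The 37 genes encoded by the mitochondrial genome were examined in RNA-seq libraries of mouse 2-cell embryos. They were chosen by name, as all genes whose symbol begins with mt-, and make up 37 of the 26982 genes in the count table: 2 ribosomal RNA (rRNA) genes, 13 protein genes and 22 transfer RNA (tRNA) genes. Of these, 32 passed the filter on low counts (both rRNA genes, all 13 protein genes and 17 tRNA genes), among 17638 genes tested. The 3 groups of 2 libraries each were embryos whose zygotes had been microinjected with Suv39h1wt mRNA, embryos whose zygotes had been microinjected with Suv39h1mut mRNA, and Non-injected embryos. Injection was at 18 h after hCG with mRNA at 0.6 ug/ul, all embryos were kept in KSOM medium, and 2 ng of total RNA per library was amplified from random and poly-T primers. The labels give neither the mouse strain, nor the change carried by Suv39h1mut, nor whether libraries of a group came from separate pools of embryos, so every p-value below measures only the spread between these libraries. No group was injected with a control RNA unrelated to Suv39h1.

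Mitochondrial DNA is a small circle inherited from the egg. It is copied into long transcripts that cover many genes each, and the tRNAs that lie between the other genes are cut out to release rRNAs and mRNAs. The rRNAs are the RNA of the mitochondrial ribosome, and the proteins it makes are subunits of respiratory complex I, complex III, cytochrome c oxidase and ATP synthase. Suv39h1, the injected factor, is a nuclear enzyme that methylates lysine 9 of histone H3.

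Total gene counts were 33.5 M to 48.6 M a library, lowest in the Non-injected group; values are given below in the order of library numbers 1 and 2. Suv39h1 itself was at 41.3 and 35.0 CPM (counts scaled to TMM library size, per 1e6) in Non-injected, 28.0 and 41.6 CPM in Suv39h1mut and 51.2 and 38.0 CPM in Suv39h1wt libraries. These ranges overlap, so the gene's counts do not set the groups apart, and each group is named here as its libraries are labelled. The embryo label was checked on marker genes. Summed over the 7 of 9 listed 2-cell genes that the table holds, the level was 284 to 748 CPM. Summed CPM was 2044 to 4006 over 11 of 11 oocyte transcripts, 10.3 to 20 over 11 of 12 cumulus and granulosa genes, 1.07 to 11.9 over 5 of 8 blood genes and 0 to 1.91 over 4 of 7 sperm genes. Fewer cells of a type and less RNA per cell cannot be told apart in these pooled libraries.

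Sequences are shown for the tRNA genes with the most reads, for neighbours of them on the opposite strand, and for the protein gene with the fewest reads. They are those of GENCODE M21 on GRCm38, read 5′ to 3′ along each gene's own strand, and all 37 genes have the same positions there as in the deposited mm9 table. The first 5 are tRNAs, with the anticodon in capitals. The serine tRNA mt-Ts1 (MT:6870-6938, minus strand), the proline tRNA mt-Tp (MT:15356-15422, minus strand) and the cysteine tRNA mt-Tc (MT:5192-5257, minus strand) had the most reads. The aspartate tRNA mt-Td (MT:6942-7011, plus strand) and the threonine tRNA mt-Tt (MT:15289-15355, plus strand) lie next to mt-Ts1 and mt-Tp on the opposite strand. They had fewer, at 15 to 44 and 1 to 6 counts a library. mt-Td was picked for its position and is not among the lowest tRNA genes. The last, mt-Nd4l (MT:9877-10173, plus strand), is the protein gene with the fewest reads, and its capitals mark the 3 bases beyond the annotated transcript of a nuclear copy.
mt-Ts1: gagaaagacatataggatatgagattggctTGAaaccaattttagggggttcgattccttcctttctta
mt-Td: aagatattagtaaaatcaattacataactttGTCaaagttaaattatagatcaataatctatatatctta
mt-Tp: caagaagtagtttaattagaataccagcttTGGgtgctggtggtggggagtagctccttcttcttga
mt-Tt: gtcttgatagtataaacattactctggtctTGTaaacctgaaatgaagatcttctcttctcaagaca
mt-Tc: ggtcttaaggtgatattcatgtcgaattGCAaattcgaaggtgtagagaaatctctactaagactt
mt-Nd4l: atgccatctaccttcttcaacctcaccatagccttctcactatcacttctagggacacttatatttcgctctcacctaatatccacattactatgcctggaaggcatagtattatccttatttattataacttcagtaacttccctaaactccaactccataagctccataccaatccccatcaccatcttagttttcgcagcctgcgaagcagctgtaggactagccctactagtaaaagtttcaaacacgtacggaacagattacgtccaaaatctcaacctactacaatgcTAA

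The rRNA genes dominated every library. mt-Rnr1 (12S rRNA of the small ribosomal subunit, MT:70-1024) stood at 126862 and 144525 CPM in the Non-injected libraries, 126782 and 105501 in the Suv39h1mut libraries and 105883 and 168522 in the Suv39h1wt libraries. mt-Rnr2 (16S rRNA of the large subunit, MT:1094-2675) stood at 188969 and 377236, 140435 and 264165, and 130006 and 446040 CPM in the same order. Library 2 held more mt-Rnr2 than library 1 in each of the 3 groups, and the ranges of the groups overlapped. Per kb of gene, mt-Rnr1 averaged 135790 ± 25202 CPM and mt-Rnr2 162964 ± 82215 CPM (SD, n = 6), and mt-Rnr2 was the higher of the pair in 3 of 6 libraries.

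Among the protein genes, level was compared per kb, as the mean over 6 libraries. mt-Nd2 (13942 ± 8424 CPM per kb, SD, n = 6) and mt-Nd4 (13058 ± 5601), both subunits of complex I, came first. Then came mt-Cytb, the cytochrome b of complex III (10721 ± 4543), the complex I subunit mt-Nd1 (9837 ± 3130) and the cytochrome c oxidase subunit mt-Co2 (9369 ± 3295). The ATP synthase subunits mt-Atp8 (7376 ± 5666) and mt-Atp6 (5412 ± 3226) lay in the middle, with the complex I subunit mt-Nd5 (5806 ± 2487) and the catalytic oxidase subunit mt-Co1 (5113 ± 2021). The complex I subunits mt-Nd3 (4268 ± 1855) and mt-Nd6 (3012 ± 1664) and the oxidase subunit mt-Co3 (1435 ± 461.5) were lower, and mt-Nd4l was far below all others at 11.6 ± 9.93 CPM per kb. Genes of 1 respiratory complex did not share 1 level: the 7 complex I genes span the whole range. Of the neighbours in this order, mt-Nd4 exceeded mt-Cytb in 6 of 6 libraries, and the last 4 genes, from mt-Nd3 down to mt-Nd4l, kept their order in 6 of 6. Each other pair of neighbouring protein genes swapped places in 1 to 3 libraries, so those neighbours did not differ beyond the spread.

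**Figure D1:**
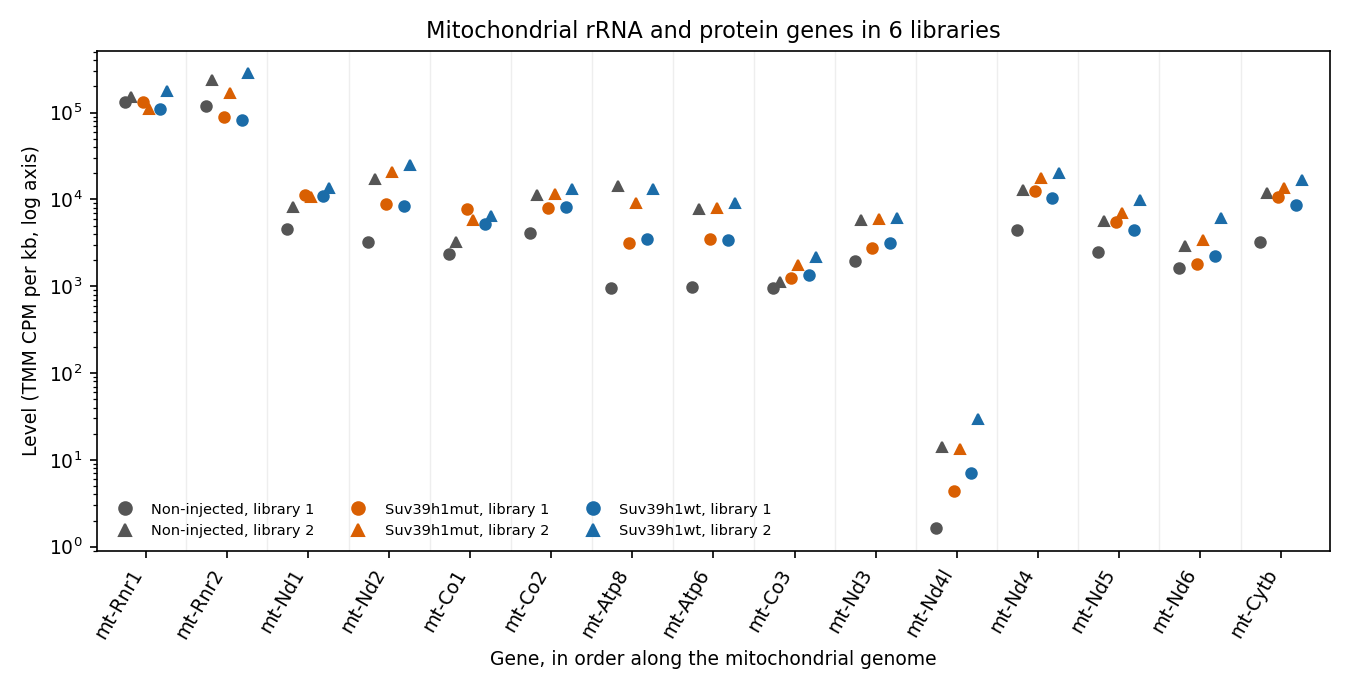
Level of each mitochondrial rRNA and protein gene in CPM per kb (log axis) in each of the 6 libraries, coloured by group, with circles for library 1 and triangles for library 2. The rRNA genes lie between 82178 and 281947 CPM per kb and mt-Nd4l between 1.63 and 29.2, and in most genes the triangles lie above the circles of the same colour.

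mt-Nd4l, a small hydrophobic subunit of complex I, had 19 and 137 counts in the Non-injected libraries, 68 and 187 in the Suv39h1mut libraries and 108 and 288 in the Suv39h1wt libraries. mt-Nd4, the next gene on the same strand, which overlaps its end, was 698-fold to 2874-fold higher per kb in the 6 libraries. The sequence printed above is held by a nuclear gene in the same table, Gm10222 (chr1:24619243-24619539 in mm9), identical over all 294 bases of that gene's GENCODE M21 transcript, and 98.9% of the 31-base words of mt-Nd4l occur in nuclear transcripts. Gm10222 had 297 and 428 counts in the Non-injected, 1144 and 1101 in the Suv39h1mut and 518 and 733 in the Suv39h1wt libraries, which is 2.55 to 16.8 times those of mt-Nd4l. Reads from such a sequence cannot be assigned to either gene, so the counts of both are uncertain. How reads that align to several places were counted is not given in the sources used here, and its part in the level of mt-Nd4l was not tested.

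Shared sequence was common among the protein genes. The share of 31-base words also found in nuclear transcripts was 100% for mt-Co2, 99.9% for mt-Co3, 99.5% for mt-Atp6 and 98.1% for mt-Nd3, against 63.9% for mt-Co1, 62.8% for mt-Nd4, at most 16.8% for mt-Nd2, mt-Nd5, mt-Nd6, mt-Cytb and mt-Atp8, and 0% for mt-Nd1. The nuclear copies in GENCODE M21 that hold most of mt-Co2, mt-Co3, mt-Atp6, mt-Nd3 and mt-Nd4 have no entry among the genes counted. They could therefore not be analysed here. Across the 13 protein genes the Spearman rho between level per kb and shared words was -0.44, given as a description, since all genes share the 6 libraries. The largest shared word fraction and a level in the upper part of the range met in mt-Co2. Gm13339, Gm13340 and Gm13341, nuclear pseudogenes that hold parts of mt-Nd2, mt-Co1 and mt-Co2, had 29 to 448 counts in a library, so the same uncertainty touches them.

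The balance between adjacent genes was compared between libraries numbered 1 and 2, as the ratio of levels per kb for the 14 pairs of rRNA and protein genes that follow each other. In 10 pairs the 3 libraries numbered 1 did not overlap with the 3 numbered 2, and in 4 they did. Successive pairs share a gene, so they are not independent. The share of such pairs among other genes was not computed, so the 10 pairs are not shown to be particular to mitochondrial genes. Of all 17638 genes tested, 3196 were higher and 3702 lower in number 2 within each of the 3 groups. The pairs of mt-Nd4l with mt-Nd3 and with mt-Nd4, without overlap, rest on 19 to 288 counts of mt-Nd4l a library. The overlapping pairs were mt-Rnr2 with mt-Nd1 and those among mt-Nd4, mt-Nd5, mt-Nd6 and mt-Cytb. The pairs described next, and mt-Co1 as a base for the ATP synthase genes, were picked after their values were seen. The ratio of mt-Rnr2 to mt-Rnr1 per kb was 0.899 and 1.58 in the Non-injected, 0.669 and 1.51 in the Suv39h1mut and 0.741 and 1.60 in the Suv39h1wt libraries. The ratio of mt-Nd2 to mt-Nd1 was 0.710 and 2.14, 0.781 and 1.91, and 0.784 and 1.86 in the same order. All 3 libraries numbered 1 had both ratios under 1 and all 3 numbered 2 had both over 1, and these ratios do not depend on how libraries are scaled. The ratio of mt-Atp8 to mt-Co1 per kb was 0.404 to 0.666 in libraries numbered 1 and 1.57 to 4.50 in those numbered 2. That of mt-Atp6 to mt-Co1 was 0.414 to 0.645 and 1.37 to 2.40.

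In an edgeR quasi-likelihood fit with group and library number, a term added after seeing the data, 551 of 17638 genes differed between numbers at an adjusted p under 0.05, 252 (1.43%) higher and 299 (1.7%) lower in number 2. Of the 32 mitochondrial genes tested, 9 passed, all higher in number 2, and 0 were lower: 1 of 2 rRNA genes, 8 of 13 protein genes and 0 of 17 tRNA genes. The SE was 0.17 to 0.39 for rRNA and protein genes other than mt-Nd4l, and 0.42 to 2.05 for tRNA genes, which had far fewer counts. The same difference could thus pass in the former and not in the latter. Genes on shared transcripts are not independent, and nuclear genes with counts as high were not compared apart. mt-Rnr2 was higher by 1.23 ± 0.19 on the log2 scale (SE; edgeR adjusted p = 0.0118). mt-Nd2 was higher by 1.74 ± 0.22 (edgeR adjusted p = 0.00652), and the overlapping genes mt-Atp8 and mt-Atp6 by 2.43 ± 0.39 and 1.84 ± 0.31 (edgeR adjusted p = 0.0129 and 0.0149). The other genes that passed were mt-Co2, mt-Nd3, mt-Nd4, mt-Nd5 and mt-Nd6, at 0.89 to 1.21 on the log2 scale. The values were 0.11 ± 0.19 for mt-Co1, 0.20 ± 0.19 for mt-Rnr1, 0.37 ± 0.19 for mt-Nd1, 0.50 ± 0.17 for mt-Co3 and 1.04 ± 0.25 for mt-Cytb, none of which passed (edgeR adjusted p from 0.0543 to 0.859). mt-Nd4l, at 2.25 ± 0.98, did not pass either.

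The size of this difference varied with the group. The log2 ratio of library 2 to library 1 for mt-Atp8 was 3.90 without injection, 1.54 with Suv39h1mut and 1.93 with Suv39h1wt, and for mt-Atp6 2.98, 1.17 and 1.43. For mt-Rnr2 it was 1.00, 0.91 and 1.78, and whether groups differ in it was not tested. Leaving out 1 library at a time left 6 to 10 mitochondrial genes past the threshold, with the fewest without Non-injected library 1, where the count over all genes was 139. Without Non-injected library 2 and without Suv39h1mut library 1 it was 281 and 215. The 9 genes named were positive in all 6 of these fits, at 0.62 to 2.91 on the log2 scale. They were chosen by the same term in the same libraries, so this is no separate support.

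Other measures moved with the number, and their part was not tested. The TMM scaling factor was 1.08 to 1.17 in libraries numbered 1 and 0.770 to 1.01 in those numbered 2. The count of genes with at least 1 read was 20305 to 22349 and 18463 to 19710. The summed level of the 11 oocyte transcripts, none of them at 0, was 2392 to 4006 and 2044 to 2702 CPM, lower in number 2 within each group but with overlapping ranges. Sperm genes were also lower within each group, at 0.787 to 1.91 and 0 to 0.275 CPM. Blood genes were higher within each group, at 1.07 to 5.03 and 4.65 to 11.9 CPM. The lists of 2-cell genes and of cumulus and granulosa genes did not keep 1 direction. The labels do not say what the number stands for.

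**Figure D2:**
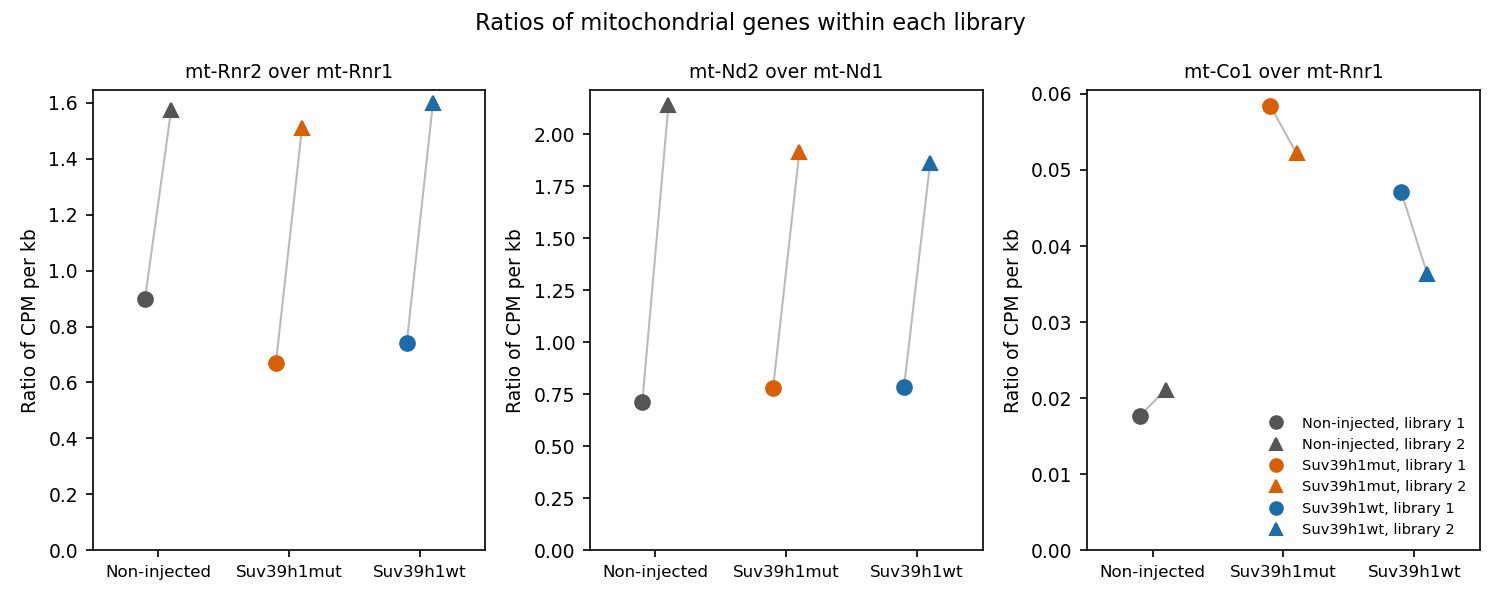
Ratios of mitochondrial genes within each library, as CPM per kb over CPM per kb (linear axes from 0), by group, with circles for library 1 and triangles for library 2 joined by a line. mt-Rnr2 over mt-Rnr1 and mt-Nd2 over mt-Nd1 lie below 1 in all libraries numbered 1 and above 1 in all numbered 2, while mt-Co1 over mt-Rnr1 separates the Non-injected libraries (0.0176 and 0.0211) from the 4 injected ones (0.0363 to 0.0584).

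The share of gene counts on mitochondrial genes was 40.7% and 55.0% in the Non-injected, 37.6% and 48.9% in the Suv39h1mut and 34.8% and 58.0% in the Suv39h1wt libraries. Library 2 was the higher of the pair in each group, and the groups overlapped. The mean difference was 3.12 percentage points between Suv39h1wt and Suv39h1mut (exact two-sided permutation p = 1), -1.44 between Suv39h1wt and Non-injected (exact p = 1) and -4.56 between Suv39h1mut and Non-injected (exact p = 0.667). With 2 libraries against 2 the smallest p this test can give is 0.333.

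Protein genes took 3.69% and 8.27% of gene counts in the Non-injected, 8.90% and 11.5% in the Suv39h1mut and 8.08% and 10.7% in the Suv39h1wt libraries. Both Suv39h1mut libraries lay above both Non-injected libraries, by 4.22 percentage points on average (exact permutation p = 0.333). Suv39h1wt overlapped with Non-injected and differed from it by 3.41 points (exact permutation p = 0.667). Within library numbers 1 and 2 the protein share was higher by 5.21 and 3.23 points with Suv39h1mut and by 4.38 and 2.43 points with Suv39h1wt than in Non-injected embryos. As a share of counts outside mt-Rnr1 and mt-Rnr2, mitochondrial genes were higher within both numbers too, by 6.62 and 2.85 points with Suv39h1mut and 5.17 and 4.77 points with Suv39h1wt. With 2 pairs, no permutation or sign test of these within-number differences can reach the threshold, and no other test of them was run. The mean level of the rRNA genes over that of the protein genes, per kb, was 53.2 and 24.9 in Non-injected, 18.7 and 15.7 in Suv39h1mut and 18.0 and 21.0 in Suv39h1wt libraries. Both Non-injected libraries were above all 4 injected ones (exact permutation p = 0.333 against each group), and Non-injected library 1 stood far above the rest.

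**Figure D3:**
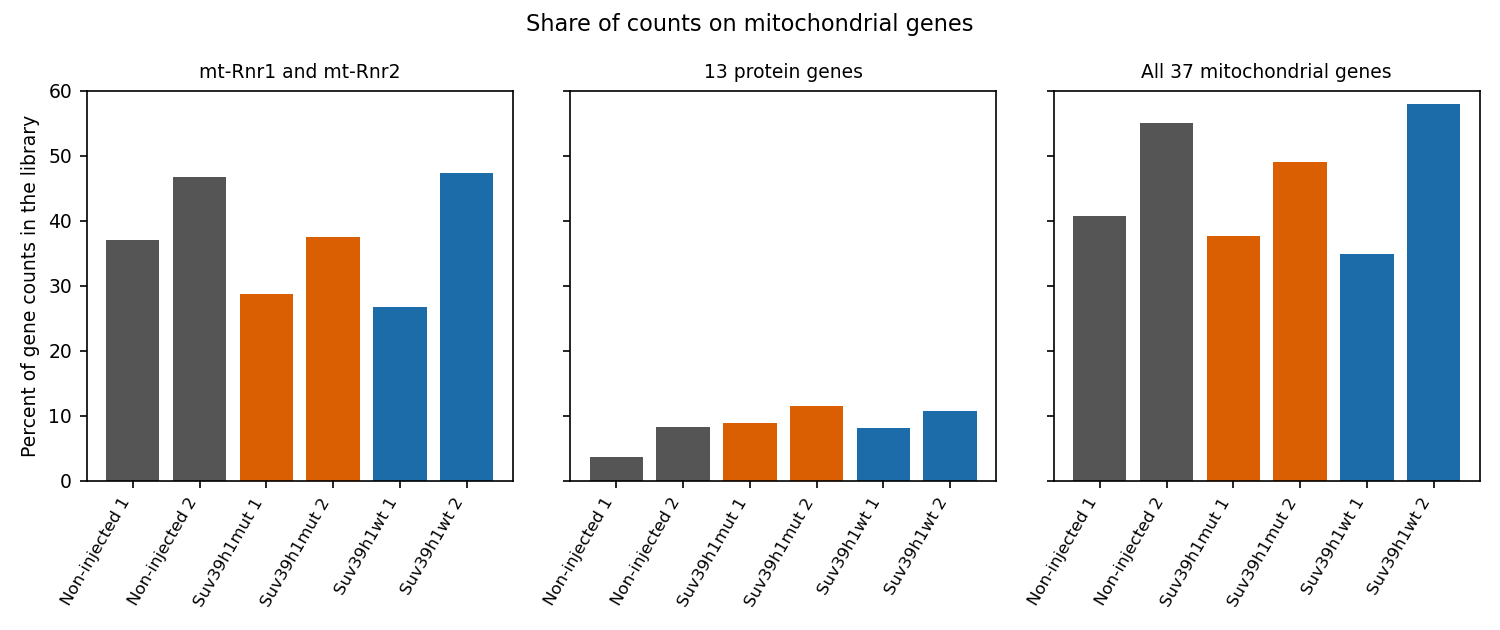
Percent of gene counts on the 2 rRNA genes, on the 13 protein genes and on all 37 mitochondrial genes, 1 bar per library. The rRNA genes hold 26.7% to 47.3% and the protein genes 3.69% to 11.5% of gene counts, and the second bar of each group is the higher in every panel.

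The first comparison sets wild-type against mutant Suv39h1 mRNA, both injected in the same way. edgeR called 0 of 17638 genes (0%) and 0 of 32 mitochondrial genes at an adjusted p under 0.05, with 480 genes and 1 mitochondrial gene at an unadjusted p under 0.05, and DESeq2 called 44 genes (0.317% of the 13876 to which it gave an adjusted p) and 0 of 23 mitochondrial genes. The rRNA genes differed by 0.24 ± 0.49 (mt-Rnr1) and 0.51 ± 0.68 (mt-Rnr2) on the log2 scale (SE). The 13 protein genes had a median log2 fold change of 0.15, with 12 positive, beside -0.01 over all genes tested. Their libraries overlapped in all 13 genes. mt-Co1 differed by -0.22 ± 0.45 and mt-Nd6, the sole protein gene on the minus strand, by 0.68 ± 0.59 on the log2 scale.

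No tRNA gene passed the test between wild-type and mutant mRNA. Both Suv39h1wt libraries lay above both Suv39h1mut libraries in 9 of the 32 mitochondrial genes, all of them tRNA genes, and this held for 12.3% of all genes tested. Some of these gaps were small: mt-Tm was at 1.612 CPM in Suv39h1wt library 1 and 1.609 CPM in Suv39h1mut library 1. mt-Ti had 16 and 23 counts against 12 and 12. The 17 tested tRNA genes had a median log2 fold change of 0.76, with 16 positive, and the median was 0.22 without Suv39h1wt library 2. Within library number 1, 10 of 17 were positive, and within number 2 all 17. mt-Ts1, which reads serine codons, was at 18.1 and 7.81 CPM in the Suv39h1mut and 41.9 and 28.9 CPM in the Suv39h1wt libraries, with 26.6 and 29.4 CPM in the Non-injected ones. The Suv39h1mut libraries were the lowest of the 6, and the other groups overlapped. The log2 fold change of mt-Ts1 was 1.45 ± 0.63 (SE; edgeR unadjusted p = 0.0426, adjusted p = 1), and the authors' deposited table gives 1.34 with an adjusted p of 0.181, the smallest of the 26 mitochondrial genes that have one there. mt-Te, the glutamate tRNA, was at 0.594 and 0.212 CPM in the Suv39h1mut, 1.02 and 2.47 in the Suv39h1wt and 1.48 and 1.13 in the Non-injected libraries. It differed by 2.10 ± 1.69 on the log2 scale between Suv39h1wt and Suv39h1mut (edgeR adjusted p = 1), and rested on 10 to 82 counts a library.

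Injection of wild-type mRNA was next compared with no injection, a contrast in which the injection itself and the enzyme cannot be told apart. edgeR called 0 of 17638 genes (0%) and 0 of 32 mitochondrial genes, with 1086 genes and 1 mitochondrial gene at an unadjusted p under 0.05, and DESeq2 called 284 genes (1.91% of 14902 with an adjusted p) and 0 of 26 mitochondrial genes. The protein genes had a median log2 fold change of 0.76 and all 13 were positive, beside a median of 0.02 over all genes tested. Both rRNA genes were at 0.02. The tRNA genes had a median of 0.22, with 11 of 17 positive, and of -0.36 without Suv39h1wt library 2. Within library numbers 1 and 2, 6 and 16 of 17 were positive.

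In 4 of the 32 mitochondrial genes both Suv39h1wt libraries lay above both Non-injected libraries, a pattern found in 16.8% of all genes tested. They were mt-Nd1, mt-Co1, mt-Co3 and the tryptophan tRNA mt-Tw, whose counts were 7 to 19 a library. mt-Co1 was at 3616 and 4937 CPM in the Non-injected and 8070 and 9888 CPM in the Suv39h1wt libraries, a log2 difference of 1.07 ± 0.45 (edgeR unadjusted p = 0.0395, adjusted p = 0.753). mt-Nd1 was at 4311 and 7759 against 10360 and 12952 CPM (0.95 ± 0.47, edgeR adjusted p = 0.753). These groups did not overlap, yet neither gene passed the threshold. mt-Co3 was at 746 and 884 against 1045 and 1717 CPM, a log2 difference of 0.76 ± 0.46.

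Injection of mutant mRNA was compared with the same Non-injected libraries. edgeR called 0 of 17638 genes (0%) and 0 of 32 mitochondrial genes, with 781 genes and 1 mitochondrial gene at an unadjusted p under 0.05, and DESeq2 called 59 genes (0.396% of 14902) and 0 of 26 mitochondrial genes. Both Suv39h1mut libraries lay above both Non-injected ones in 3 of 32 mitochondrial genes, against 18.9% of all genes tested, again mt-Nd1, mt-Co1 and mt-Co3. mt-Co1 was at 11980 and 8906 CPM in the Suv39h1mut libraries, a log2 difference of 1.29 ± 0.46 from Non-injected (edgeR unadjusted p = 0.0176, adjusted p = 0.880). mt-Nd1 was at 10771 and 10329 CPM (0.81 ± 0.47) and mt-Co3 at 967 and 1392 CPM (0.53 ± 0.46). The 13 protein genes had a median log2 fold change of 0.52, with 12 positive.

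These 2 comparisons share the Non-injected libraries, so their likeness is not independent. The ratio of mt-Co1 to mt-Rnr1 per kb, which needs no scaling, was 0.0176 and 0.0211 in Non-injected, 0.0584 and 0.0522 in Suv39h1mut and 0.0471 and 0.0363 in Suv39h1wt libraries, without overlap between Non-injected and the others. The gene was picked for this ratio after its values were seen, so no test is given. Within library number 1 the log2 ratio of Suv39h1wt to Non-injected was 1.16 for mt-Co1 and within number 2 it was 1.00, and for Suv39h1mut to Non-injected it was 1.73 and 0.85. Most protein genes were likewise positive: 13 and 12 of 13 within numbers 1 and 2 for Suv39h1wt, and 13 and 11 for Suv39h1mut. mt-Atp8 did not hold its sign, since its log2 ratio of Suv39h1mut to Non-injected was 1.70 within number 1 and -0.66 within number 2. The summed levels of 3 marker lists were higher in the 4 injected libraries too: 442 to 748 against 284 and 311 CPM for 2-cell genes, 2503 to 4006 against 2044 and 2392 CPM for oocyte transcripts, and 12.2 to 20 against 10.3 and 12 CPM for cumulus and granulosa genes. This was without overlap, with no marker of these lists at 0 in all libraries. Their part in the levels of the mitochondrial protein genes was not tested.

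**Figure D4:**
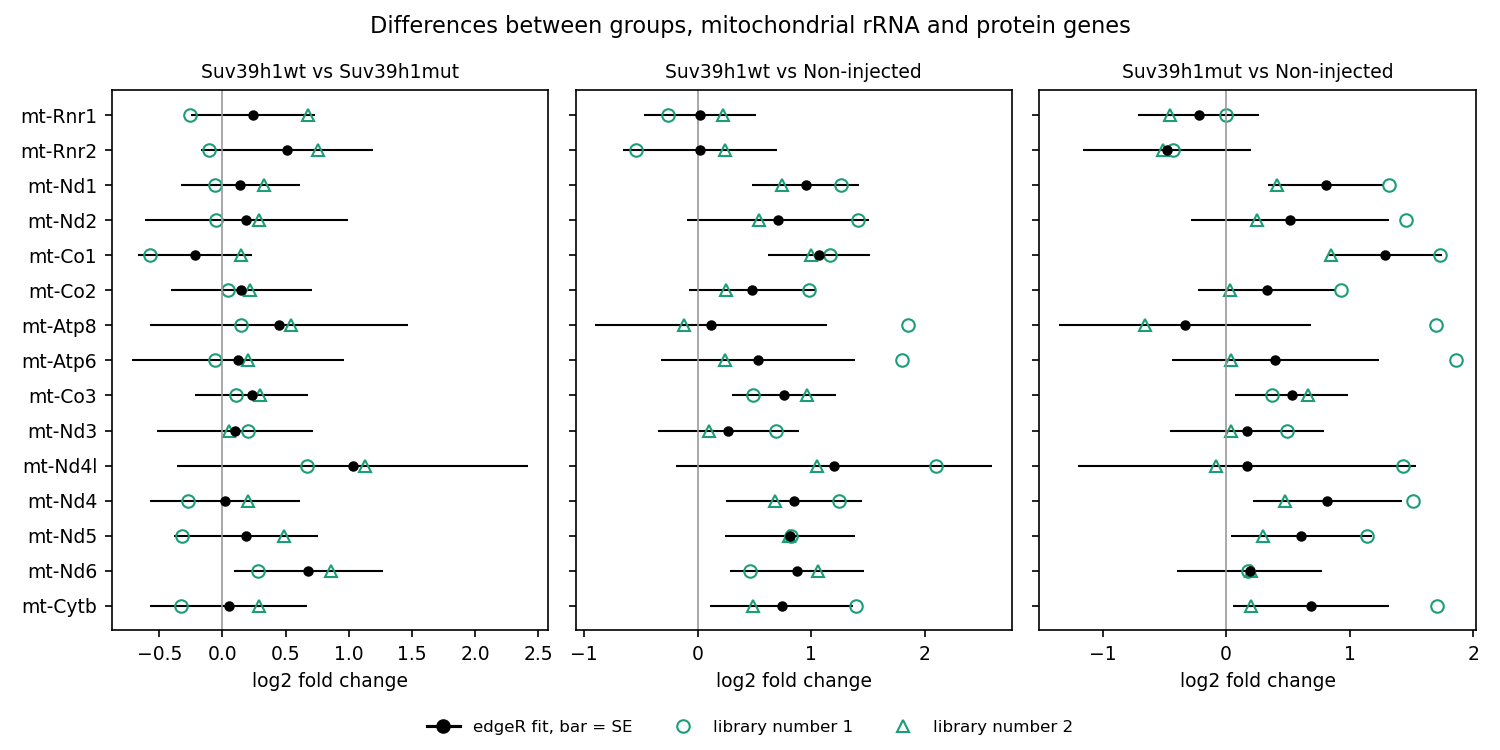
Log2 fold changes of the rRNA and protein genes in the 3 comparisons, as black points with the SE of the edgeR fit, and the ratio within library number 1 (open circles) and within number 2 (open triangles). mt-Co1, like most protein genes, lies above 0 in both comparisons with Non-injected embryos within each number. The values of mt-Atp8 and mt-Atp6 lie far apart between numbers.

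In Suv39h1mut against Non-injected embryos the tRNA and rRNA genes stood on the other side of 0 from 12 of the 13 protein genes. All 17 tested tRNA genes had negative values in the fit, with a median log2 fold change of -0.61 (13 of 17 negative within library number 1 and 17 within number 2), and mt-Rnr1 and mt-Rnr2 were at -0.22 ± 0.49 and -0.48 ± 0.68. Both Suv39h1mut libraries lay below both Non-injected libraries in 11 of 32 mitochondrial genes (10 tRNA genes and mt-Rnr1), and the same held for 16.5% of all genes tested. For mt-Rnr1 this was a near tie, at 126782 CPM in Suv39h1mut library 1 and 126862 CPM in Non-injected library 1. Among the tRNA genes mt-Tk had 7 and 4 counts against 9 and 6. mt-Ts1 differed by -1.11 ± 0.62 on the log2 scale and mt-Te by -1.69 ± 1.67 (edgeR adjusted p = 0.880 and 0.910). The aspartate tRNA mt-Td was at 0.326 and 0.317 CPM against 0.791 and 0.980. The tRNA comparison rests on the same Suv39h1mut libraries as that with Suv39h1wt.

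tRNA genes gave 0.00372% to 0.00876% of gene counts. The 5 that did not pass the filter were the tRNAs for alanine (mt-Ta), tyrosine (mt-Ty), glycine (mt-Tg), histidine (mt-Th) and threonine (mt-Tt), with 1 to 14 counts in a library. The lowest that passed were those for lysine (mt-Tk, 2 to 11 counts), tryptophan (mt-Tw) and valine (mt-Tv, 6 to 17 counts). The highest was mt-Ts1, with 369 to 2184 counts, then mt-Tp, with 533 to 1205, and mt-Tc, with 189 to 298.

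These 3, whose sequences are printed above, are all on the minus strand. The 8 minus-strand tRNA genes had a median of 31.1 CPM per kb, with mt-Ts1 at 369 and mt-Ty at 1.72, and the 14 plus-strand ones a median of 5.68, from 1.204 (mt-Tt) to 28.0 (mt-Tm, the methionine tRNA). The minus-strand median was the higher in all 6 libraries, at 21.8 to 41.5 against 3.63 to 10.8 CPM per kb. mt-Tp at 296 CPM per kb abuts mt-Tt at 1.204, and mt-Ts1 at 369 lies beside mt-Td at 10.1. The plus-strand genes around them are protein genes with far more counts per kb: mt-Co1 overlaps mt-Ts1 by 3 bases, and mt-Cytb lies next to mt-Tt. The strand setting of the counting is not stated, so reads from a minus-strand tRNA and from plus-strand RNA across the same bases cannot be told apart. The order of the strands is therefore one of counts at these positions.

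mt-Tp overlapped between all groups, at 25.6 and 16.3 CPM in Non-injected, 23.1 and 15.8 in Suv39h1mut and 18.3 and 20.01 in Suv39h1wt libraries. The glutamine tRNA mt-Tq was at 2.17 and 1.04 CPM in Non-injected, 1.28 and 0.614 in Suv39h1mut and 2.67 and 2.08 in Suv39h1wt libraries, where Suv39h1wt lay above Suv39h1mut and overlapped with Non-injected.

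**Figure D5:**
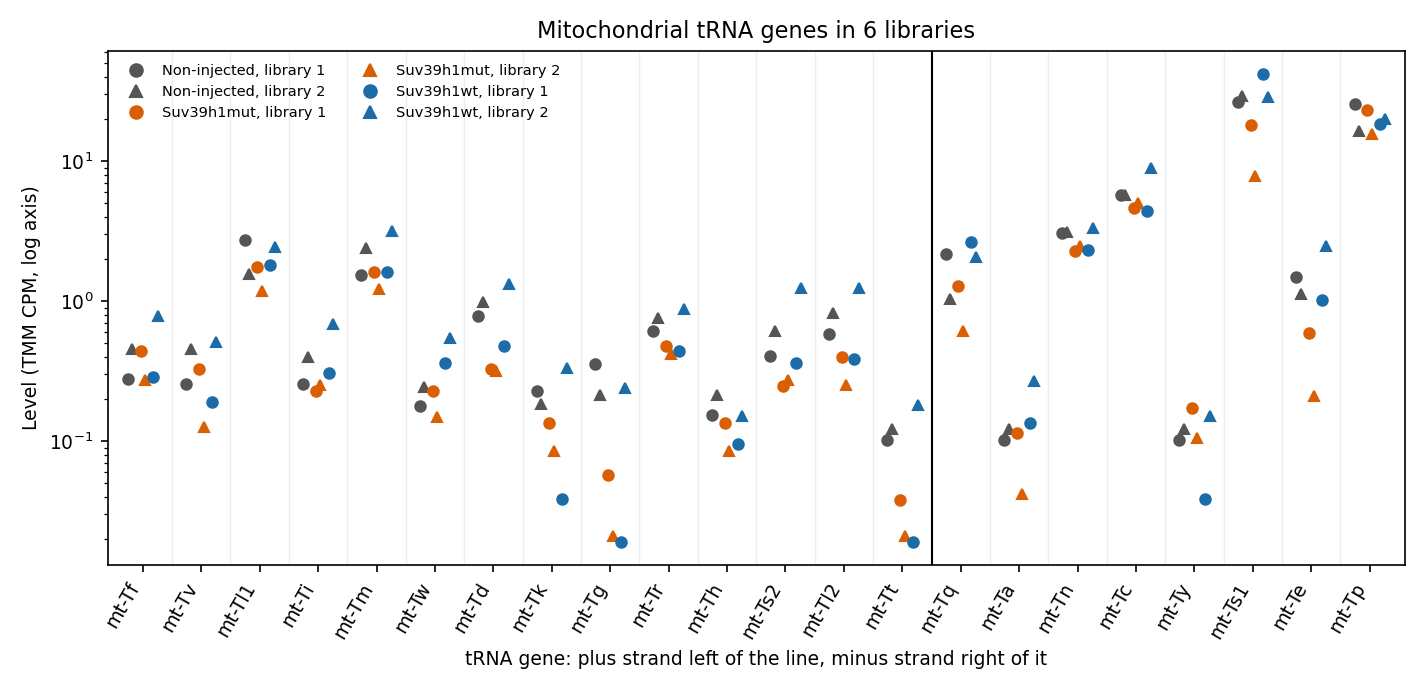
Level of the 22 mitochondrial tRNA genes in CPM (log axis) in each library, with plus-strand genes left and minus-strand genes right of the line. mt-Ts1 and mt-Tp lie at 7.81 to 41.9 CPM, the Suv39h1mut libraries are the lowest for mt-Ts1, and most plus-strand genes lie under 3 CPM.

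The nuclear genes that transcribe, cut, modify and degrade mitochondrial RNA were read from a longer list, of which 49 entries had counts. All 49 were tested, and Nsun4 is among them under separate gene identifiers. Listed genes such as Tefm, Mgme1, Primpol and Slirp had no entry under the symbols used. edgeR called 0 of 49 in each comparison, and 16, 18 and 22 were positive in Suv39h1wt against Suv39h1mut, Suv39h1wt against Non-injected and Suv39h1mut against Non-injected. The median log2 fold changes were -0.16, -0.31 and -0.26. DESeq2 called 1, Ftsj2, in Suv39h1wt against Non-injected (DESeq2 adjusted p = 0.0243), which is 2.13% of the 47 with an adjusted p, near the 1.91% over all genes. Ftsj2, a methyltransferase of the 16S rRNA, had 145 and 78 counts in the Non-injected, 38 and 2 in the Suv39h1mut and 1 and 0 in the Suv39h1wt libraries, which do not overlap between groups.

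Peo1, the Twinkle helicase that unwinds mitochondrial DNA, was at 45.5 and 62.8 CPM in Non-injected, 17.9 and 9.99 in Suv39h1mut and 22.2 and 35.9 in Suv39h1wt libraries, and both injected groups lay below Non-injected. Its log2 fold change for Suv39h1mut against Non-injected was -1.96 ± 0.59 (edgeR unadjusted p = 0.00772, adjusted p = 0.880). Fastkd1, of a family that sets the stability of mitochondrial mRNAs, was at 44.0 and 32.3 CPM in Non-injected against 96.5 and 59.7 in Suv39h1mut and 83.7 and 75.4 in Suv39h1wt libraries. It differed by 1.03 ± 0.48 and 1.06 ± 0.48 on the log2 scale, without overlap and without passing the threshold. Ptcd2, a mitochondrial RNA-binding protein, was at 2.02 and 0.521 CPM in Non-injected and 10.7 and 6.01 in Suv39h1mut libraries (2.71 ± 1.17, edgeR adjusted p = 0.880). Tbrg4, of the same family as Fastkd1, was at 16.2 and 56.4 CPM in Non-injected and 7.58 and 16.03 in Suv39h1wt libraries (-1.62 ± 0.77, edgeR adjusted p = 0.753), and the value was -0.46 without Non-injected library 2.

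The rRNA modifier Tfb1m, which dimethylates the 12S rRNA, had 60 and 60 counts in Non-injected, 281 and 593 in Suv39h1mut and 89 and 2 in Suv39h1wt libraries. Mterfd3, of the mitochondrial transcription terminator family, had 2 and 5, 111 and 90, and 6 and 7 counts in the same order. Both were highest in the Suv39h1mut libraries, and neither was called. The level of mt-Rnr1, the rRNA that Tfb1m modifies, overlapped between Suv39h1wt and Suv39h1mut. It was lower in both Suv39h1mut libraries than in both Non-injected ones, with a near tie between the libraries numbered 1. Any link between the levels of Tfb1m and mt-Rnr1 was not tested.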

How the data were processed

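Libraries came from amplified total RNA of 2-cell embryos, in 3 groups of 2 taken from the labels. Per the submitters' processing notes, the authors used CASAVA 1.8.2, TopHat2 2.0.14 with Bowtie on mm9, and HTSeq 0.6.1. How the counting treated strand and reads with several alignments, and which annotation it used, are not given in the sources used here. The deposited table holds raw counts for 26982 genes, and each column of counts was mapped to 1 library. The normalized signal columns deposited by the authors, counts over a size factor per library, with or without division by gene length, were not used in tests. The log2 ratios and p-values in the authors' deposited table, for Suv39h1wt against Suv39h1mut, are printed as theirs, and their test is not stated there; 33 of 37 members have a positive log2 ratio and 0 an adjusted p under 0.05.

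Raw counts were fitted here with R 4.3.3, edgeR 4.0.16 (robust quasi-likelihood F test, group as the sole factor, TMM scaling, filterByExpr with a minimum count of 10) over all 17638 genes that passed. Benjamini-Hochberg adjustment ran over all of them, with an adjusted p under 0.05 as the threshold. DESeq2 1.42.0 was an alternative, run on the same genes. Shares and ratios were compared by exact permutation with SciPy 1.17.1. The biological coefficient of variation was 0.862. The fits were run on simulated data and had to recover the direction of 200 changed genes. Those changes were far larger than the group differences of the mitochondrial genes. Whether differences of the sizes seen here could be called was not tested, so a count of 0 called does not show that groups were alike. Levels are CPM over TMM-scaled library sizes, and per kb over the gene's annotated span. Words of 31 bases were matched within GENCODE M21 transcripts.

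The members and the lists of genes were chosen with earlier results of these data known. Named are all rRNA and protein genes, the 3 highest and 3 lowest tested tRNA genes, and those not tested. Per comparison, the 3 tRNA genes and the 3 genes of the expression machinery with the smallest p are named too. mt-Tm and mt-Ti were picked after their values were seen, and mt-Tf because its sign changed with the block described below. Each group has a library 1 and a library 2. Around their group means, libraries of the same number had deviations that correlated at 0.196, 0.141 and 0.167 over all genes tested, each over 0.1, so the numbers were treated as a pairing on the data's evidence, and the number entered an additional fit as a block.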

Additional observations from a re-analysis of the deposited data

How the results depend on the processing

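With the library number as a replicate block, edgeR called 0 genes and 0 mitochondrial genes in each of the 3 group comparisons, as without it, and the coefficient of variation was 0.774 in place of 0.862. The block moved mt-Rnr1 from 0.02 to -0.00 and mt-Rnr2 from 0.02 to -0.13 on the log2 scale in Suv39h1wt against Non-injected. In Suv39h1mut against Non-injected it moved mt-Atp8 from -0.33 to 0.40 and the tRNA gene mt-Tf from -0.05 to 0.07. In Suv39h1wt against Suv39h1mut it moved mt-Nd4 from 0.02 to -0.05, mt-Cytb from 0.05 to -0.06 and mt-Tp from -0.02 to 0.02. The block changed no call. Mitochondrial genes called in these 3 comparisons stayed at 0 under every alternative run, while genes called in Suv39h1wt against Suv39h1mut, Suv39h1wt against Non-injected and Suv39h1mut against Non-injected were 18, 33 and 9 without the low-count filter and 44, 284 and 59 in DESeq2, and 0 to 1 in the first 2 with 1 library left out. Between library numbers, DESeq2 called 2428 genes in place of 551, and leaving out 1 library gave 139 to 769, with 215 without Suv39h1mut library 1 and 281 without Non-injected library 2.

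Counted without mt-Rnr1 and mt-Rnr2, the mitochondrial share changed sign to 4.97 percentage points for Suv39h1wt and 4.73 for Suv39h1mut against Non-injected (exact permutation p = 0.667 for both). With 1 library left out the share difference ran from -8.47 to 14.7, from -13.0 to 10.2 and from -11.8 to 2.63 points in the 3 comparisons in that order, and the median log2 fold change of the protein genes from -0.46 to 0.57, from 0.09 to 1.52 and from -0.13 to 1.53. That of the tRNA genes ran from 0.22 to 1.2, from -0.36 to 0.68 and from -0.86 to -0.43. Single genes that changed sign when 1 library was left out were mt-Rnr1 (-0.13 to 0.57 and -0.36 to 0.35 in the first 2 comparisons), mt-Rnr2 (-0.64 to 1.17, -1.12 to 0.71 and -0.99 to 0.10), mt-Co1 (-0.40 to 0.01 in the first) and mt-Nd6 (-0.23 to 1.27 and -0.04 to 1.48 in the first 2). Per read count in place of per kb, rRNA over protein genes was 4.98 in place of 25.2, tRNA over protein genes 0.000952 in place of 0.00831, and plus-strand over minus-strand protein genes 58.4 in place of 2.48, by construction, since gene lengths and numbers then enter. The other 263 values of single genes kept their direction and side of the threshold, though not their size. Single genes in these checks were only mt-Rnr1, mt-Rnr2, mt-Co1, mt-Co3, mt-Nd1, mt-Nd6, mt-Ts1, mt-Te, Peo1, Ptcd2, Fastkd1 and Tbrg4. The other 165 values were counts within 1.5 times the main count or values that moved by under 1 SD between libraries, and 2 of them changed sign. The cause of the other changes was not tested. Counting error limits any comparison of the 8 tRNA genes that had under 20 counts in every library.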
